A study of Mus musculus and unidentified plasmid with 60 samples.

Results

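Egr1, Egr2, Egr3 and Egr4 are the early growth response genes, and the regions listed as bound by a dominant-negative RFX construct (RFX-DN) at their loci are described here. The members are all listed regions that overlap a fixed window of the mouse build mm9 around each gene. The windows were set by gene position, though the genes and the lists used were chosen with earlier results of these data known. They run on chromosome 18 from 35000000 to 35045000 for Egr1, on chromosome 10 from 66970000 to 67030000 for Egr2, on chromosome 14 from 70450000 to 70510000 for Egr3, and on chromosome 6 from 85435000 to 85485000 for Egr4. Within these 215 kb lay 25 of the 122135 regions listed after 1 h of potassium chloride (KCl), 28 of the 173231 regions listed at 0 h and 0 of the 43 regions listed in a group titled WT.

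The libraries are anti-MYC ChIP-seq libraries of cortical neurons from embryonic day 16 CD-1 mice, taken on day in vitro (DIV) 7, with 2 libraries in each group. In the 1 h group, neurons received RFX-DN by lentivirus on DIV 2, had their activity blocked overnight on DIV 6 (tetrodotoxin plus an NMDA receptor blocker), and were then depolarized for 1 h in 55 mM KCl. The 0 h group carried the same virus and was silenced in the same way, without depolarization. The WT group carries no treatment in its labels, and whether its neurons held the construct is unclear, since a common protocol text tells of transduction for all ChIP-seq samples. Bath depolarization acts on every cell of a dish, and a list of bound regions gives no marker by which the cell type could be checked. Each list is a single combined list for its 2 libraries. A region carries the position of a peak centre in column c1, in c2 or in both. The 2 columns are read here as the replicates of a group, which the lists do not state. Under that reading, this support is the only replicate information. Depth is unknown.

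Egr proteins are zinc-finger transcription factors that bind GC-rich sequence and whose genes are switched on within minutes of neuronal activity as immediate early genes. Egr1 is widely used as a marker of recently active neurons, Egr2 is best known for hindbrain segmentation and for myelination by Schwann cells, Egr3 for muscle spindle development and Egr4 for male fertility. Activity reaches these genes largely through serum response factor, which binds the CArG box, and through CREB, which binds the cAMP response element (CRE). RFX proteins are winged-helix factors that bind the X-box, an inverted repeat with arms close to GTTGCC. A dominant-negative form interferes with the native proteins. The precipitated protein here is the construct itself, so the regions show where it was recovered and not where native RFX was bound.

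Promoter sequences from RefSeq (GRCm38.p6, 250 bases before to 50 after a start) are shown for 2 of the 4 genes, Egr2 and Egr4. Each sequence shown carries at least 1 kind of element through which Egr genes are known to respond to activity. Promoters of the other genes are not described here. Capitals mark the CRE core TGACG, searched on both strands, and the CArG box, and the 2 motifs do not overlap. The CArG box was searched in its strict form only, with CC and GG around 6 bases that are each A or T. Looser forms of it were not searched. The minus strand of chromosome 6 holds the Egr4 promoter (chr6:85513540-85513839), and the plus strand of chromosome 10 holds this Egr2 promoter (chr10:67537619-67537918), which is 1 of 5 starts in the table and was chosen after its motifs were seen.
Egr4: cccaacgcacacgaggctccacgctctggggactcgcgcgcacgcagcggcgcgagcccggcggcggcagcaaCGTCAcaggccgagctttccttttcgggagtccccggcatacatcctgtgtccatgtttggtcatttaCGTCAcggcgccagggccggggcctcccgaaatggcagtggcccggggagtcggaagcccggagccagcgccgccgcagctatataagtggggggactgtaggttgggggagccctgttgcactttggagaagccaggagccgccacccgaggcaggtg
Egr2: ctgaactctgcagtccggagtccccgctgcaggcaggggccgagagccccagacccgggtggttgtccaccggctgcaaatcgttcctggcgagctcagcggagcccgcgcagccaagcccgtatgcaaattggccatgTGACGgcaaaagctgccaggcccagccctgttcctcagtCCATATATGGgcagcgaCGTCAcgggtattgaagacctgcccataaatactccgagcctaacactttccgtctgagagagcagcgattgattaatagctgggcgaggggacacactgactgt
The Egr4 promoter held 2 CRE cores and no CArG box of the strict form, and the Egr2 promoter shown held 2 CRE cores and 1 CArG box. Of the 5 Egr2 starts, 3 held CRE cores and 4 a CArG box, and the 3 with CRE cores overlap one another and share these motifs. The start farthest upstream (chr10:67535249-67535548) held neither motif. Among 32544 distinct promoters of the same length, 20.9% held a CRE core and 1.64% a CArG box. The X-box arm GTTGCC, on either strand, was in none of the 5 Egr2 promoters or the Egr4 promoter and in 12.4% of all promoters, and the relaxed form GTTNCC, which includes it, was in none of them and in 45.3% of all. These letters are a description of the windows shown. No mm9 annotation was used, so whether a listed region covers a promoter was not established, and the sequence of the listed regions themselves was not read.

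The Egr loci kept most of their listed regions after 1 h of depolarization. Egr3 and Egr4 had the same number of regions at both times, and every one had a counterpart at the other time. Egr2 also had the same number, but 1 of its regions at each time was listed at that time only. Egr1 was the locus that differed in number, with 7 regions at 1 h, of which 5 had a counterpart, and 10 at 0 h, of which 6 had one. With regions at most 500 bases apart merged, that difference ended, at 7 regions at 1 h and 7 at 0 h. Of all listed regions, 93.3% at 1 h and 65.4% at 0 h had one. A gene's window is much longer than the gene, which spans 2.47 kb for Egr4, 3.75 kb for Egr1, 5.30 kb for Egr3 and 7.72 kb for Egr2 in RefSeq's annotation. The nearest protein-coding neighbours in that annotation are Reep2 and Etf1 for Egr1, Nrbf2 and Ado for Egr2, Pebp4 and Bin3 for Egr3, and Fbxo41 and Alms1 for Egr4, so a region of a window need not belong to the Egr gene.

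**Figure D1:**
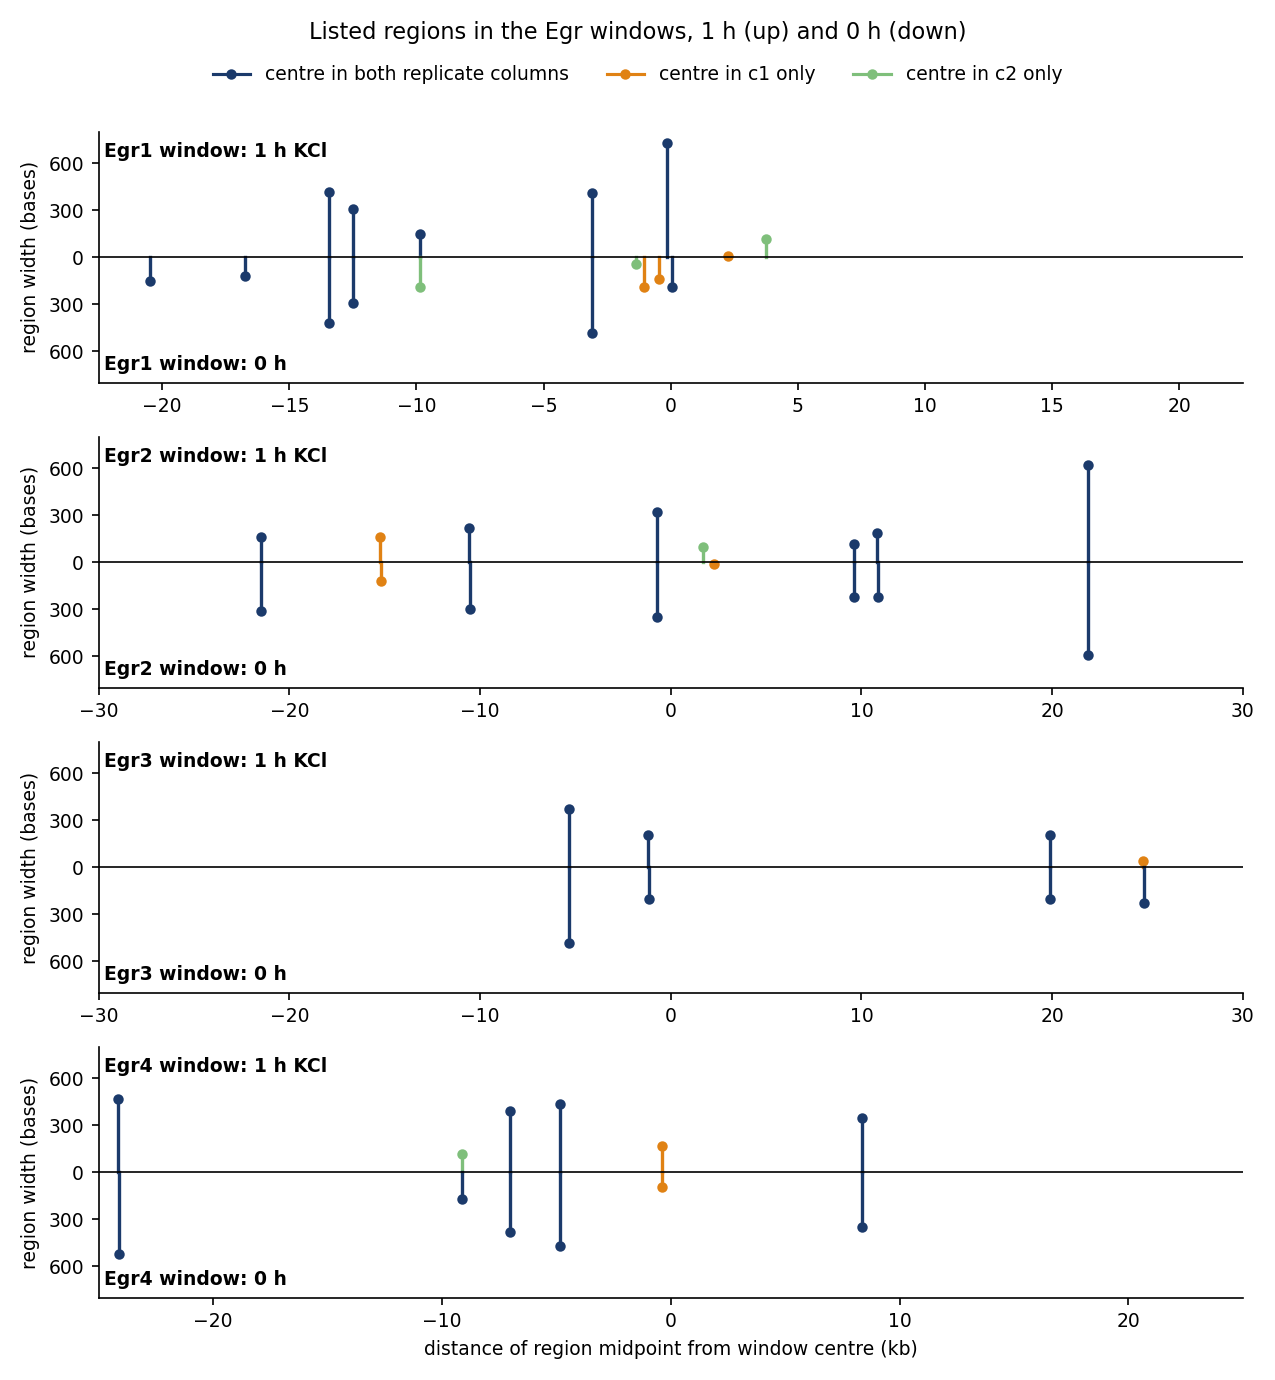
Each stem is a listed region at the distance of its midpoint from the centre of the window (kb, horizontal axis), with its width in bases as the length of the stem, upward for 1 h and downward for 0 h, and its colour giving the support by the replicate columns. Egr3 and Egr4 show the same positions at both times, and the Egr1 window differs on its left edge and near its centre.

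Crowding differed between the loci more than between the times. At 1 h the windows held 15.6 regions per 100 kb for Egr1, 13.3 for Egr2, 12.0 for Egr4 and 6.67 for Egr3. At 0 h the values were 22.2 for Egr1, 13.3 for Egr2, 12.0 for Egr4 and 6.67 for Egr3. The order of the loci was thus the same at both times, and Egr2 and Egr4 stood close together. Over chromosomes 1 to 19 as a whole the lists held 4.92 regions per 100 kb at 1 h and 6.99 at 0 h. When chromosomes 1 to 19 were divided into windows of 45 kb, the median window held 2 regions at 1 h and 3 at 0 h, and 2.86% of windows at 1 h and 1.37% at 0 h held at least as many as the Egr1 window. For the Egr2 window, with windows of 60 kb, these shares were 4.20% at 1 h and 14.5% at 0 h. For the Egr4 window, with windows of 50 kb, they were 8.49% at 1 h and 21.4% at 0 h. Egr3 was ordinary by this measure, with 35.7% at 1 h and 53.2% at 0 h. The windows set beside the Egr loci here span whole chromosomes and were not matched to genes. Of those of 45 kb, 19.8% at 1 h and 12.5% at 0 h held no region. A single list stands behind each count, so the counts have no replicate error.

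Egr1, the most crowded locus, had 5 regions at 1 h with centres in both columns and 2 with a centre in 1 column. The widest at 1 h ran from 35021990 to 35022720 and was 730 bases wide, followed by regions of 420 bases (35008830 to 35009250), 410 bases (35019190 to 35019600), 310 bases (35009860 to 35010170) and 150 bases (35012550 to 35012700). All 5 had centres in both columns, at most 30 bases apart. Of these, 4 had a single counterpart at 0 h of much the same place and width. The 0 h counterparts were 420 bases (35008830 to 35009250, the same start and end as at 1 h), 480 bases (35019180 to 35019660), 290 bases (35009860 to 35010150) and 190 bases (35012530 to 35012720). The 190-base region had a centre in c2 only at 0 h, while the other 3 had centres in both columns. Both lists left the right side of the window empty, for 18.7 kb at 1 h and for 22.3 kb at 0 h.

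The widest 1 h region of Egr1 was listed in pieces at 0 h. It overlapped 2 regions at 0 h, of 140 bases (35021950 to 35022090, centre in c1 only) and of 190 bases (35022470 to 35022660, centres in both columns). The 140-base piece falls outside the rule for naming regions and was chosen after its values were seen. The 2 pieces and the gap between them span 710 bases, against the 730 bases of the 1 h region. The centres at 1 h, 35022590 and 35022560, lay within 20 bases of the shared centre of the right-hand piece at 0 h, 35022580. The 1 h region was 3.84 times as wide as the wider of the 2 pieces. Among the 113965 regions at 1 h with a 0 h counterpart, 0.175% met more than 1 region at 0 h, and 0.939% were at least 3.84 times as wide as their widest counterpart. Just left of these pieces the 0 h list held 2 further regions with no 1 h counterpart, of 190 bases (35021350 to 35021540, centre in c1 only) and of 40 bases (35021110 to 35021150, centre in c2 only). They lay 450 and 840 bases from the nearest 1 h region.

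**Figure D2:**
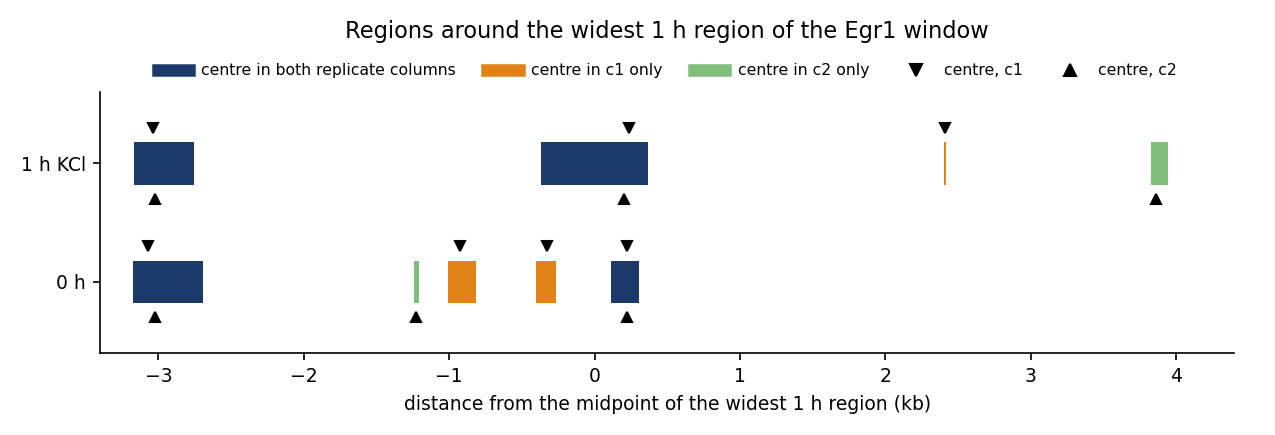
Bars are listed regions around the widest 1 h region of the Egr1 window, drawn to scale by distance from its midpoint (kb), with the 1 h list above the 0 h list, and triangles are the peak centres of the 2 replicate columns. The stretch of 730 bases at 1 h faces pieces of 140 and 190 bases at 0 h, and both 1 h centres stand over the right-hand piece.

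Of the Egr regions, 3 of 25 at 1 h (12.0%) and 5 of 28 at 0 h (17.9%) were listed at that time only, against 6.69% of the whole 1 h list and 34.6% of the whole 0 h list. The 3 at 1 h each had a centre in 1 column only. They were an Egr1 region of 120 bases (35026180 to 35026300, c2) that lay 3520 bases from the nearest 0 h region, an Egr1 region of 10 bases (35024760 to 35024770, c1) at 2100 bases, and an Egr2 region of 100 bases (67001660 to 67001760, c2) at 480 bases. At 0 h there were 5, of which 2 had centres in both columns. These 2 lay at the left of the Egr1 window, from 35001960 to 35002110 (150 bases) and from 35005710 to 35005830 (120 bases), 5970 and 3000 bases from the nearest 1 h region. The remaining 3 at 0 h were the Egr1 regions of 190 and 40 bases given above and an Egr2 region of 10 bases (67002240 to 67002250, c1). The Egr2 regions of the 1 h and the 0 h list lay 480 bases apart. A width of 10 bases is the smallest in either list and was held by 2.93% of 1 h and 3.31% of 0 h regions. Over the whole lists, both columns gave a centre for 3.56% of the 8170 regions listed at 1 h only and for 26.6% of the 59957 listed at 0 h only, and the median widths were 70 bases for the 1 h ones and 100 bases for the 0 h ones.

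Egr2 had 6 regions at 1 h and 6 at 0 h with centres in both columns, and these 6 were counterparts of each other. Its widest region was 620 bases at 1 h (67021570 to 67022190) and 590 bases at 0 h (67021600 to 67022190). At 1 h the 2 column centres of that region lay 360 bases apart, against 10 bases at 0 h, and this was the sole pair among the Egr loci whose mean centre moved by more than 100 bases, with a shift of 195. The region nearest the centre of the window was 320 bases at 1 h (66999130 to 66999450) and 350 bases at 0 h (66999110 to 66999460). The other 4 of these were narrower at 1 h than at 0 h, with 220 bases at 1 h against 300 at 0 h (66989310 to 66989530 at 1 h), 190 at 1 h against 220 at 0 h (67010720 to 67010910), 160 at 1 h against 310 at 0 h (66978410 to 66978570) and 120 at 1 h against 220 at 0 h (67009570 to 67009690). A region with a c1 centre only was 160 bases at 1 h (66984700 to 66984860) and 120 bases at 0 h (66984740 to 66984860). A combined region has 1 width and no replicate error, so no test was made of any width.

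Egr3 was the sparsest locus, with 4 regions at each time and none in the left 24.5 kb of the window at 1 h or the left 24.4 kb at 0 h. Its widest region was 370 bases at 1 h (70474490 to 70474860) and 480 bases at 0 h (70474440 to 70474920). A pair of regions was near equal at both times, with 210 bases at 1 h and 200 at 0 h for each (70478730 to 70478940 and 70499790 to 70500000 at 1 h). The rightmost region was 40 bases at 1 h with a centre in c1 only (70504750 to 70504790), against 230 bases at 0 h with centres in both columns (70504680 to 70504910). That pair had the lowest width ratio of the Egr loci, 0.174. All 4 regions at 0 h and 3 of the 4 at 1 h had centres in both columns.

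Egr4 had 6 regions at each time, all of them counterparts of each other. The 4 that both columns supported at 1 h were 470 bases (85435630 to 85436100), 440 bases (85454920 to 85455360), 390 bases (85452800 to 85453190) and 350 bases (85468190 to 85468540) wide. Their 0 h counterparts were 520, 470, 380 and 350 bases wide, again with centres in both columns, from 85435620, 85454920, 85452800 and 85468200. Mean centres of these 4 moved by at most 5 bases. A narrower region was 120 bases at 1 h with a centre in c2 only (85450800 to 85450920), against 170 bases at 0 h with centres in both columns (85450780 to 85450950). The last region had a c1 centre only at either time, with 170 bases at 1 h (85459540 to 85459710) and 90 bases at 0 h (85459580 to 85459670).

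Sharing between the times was set beside the whole lists. A 0 h region was overlapped, by at least 1 base, by 22 of the 25 Egr regions at 1 h (88.0%, 95% exact Clopper-Pearson interval 68.8% to 97.5%), against 93.3% of the whole 1 h list. Of the 28 Egr regions at 0 h, 23 (82.1%, interval 63.1% to 93.9%) overlapped a 1 h region, against 65.4% of the whole 0 h list. Both whole-list shares lie within these intervals, which cover counting error only and treat neighbouring regions as independent. With centres in both columns, 18 of 18 Egr regions at 1 h were found at 0 h, against 99.6% of such regions in the whole list, and 19 of 21 at 0 h were found at 1 h, against 84.9%. The 2 that were not are the left-hand Egr1 regions. The counterpart could have any support in these shares. It had centres in both columns for 17 of the 18 at 1 h and for 17 of the 19 at 0 h. With a centre in 1 column, 4 of 7 Egr regions at 1 h were found at 0 h, against 85.7% of such regions in the list, and 4 of 7 at 0 h were found at 1 h, against 34.8%.

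Support and width were set beside these shares. Both columns gave a centre for 18 of 25 Egr regions at 1 h (72.0%, interval 50.6% to 87.9%), against 54.8% of the whole list, and for 21 of 28 at 0 h (75.0%, interval 55.1% to 89.3%), against 61.0%. At 1 h, 14 of the 25 Egr regions were wider than 200 bases and all 14 were found at 0 h, against at least 99.6% in each such width class of the list. Of the 8 Egr regions at 1 h above 100 and up to 200 bases, 7 were found at 0 h, against 92.9% in the list, and of the 3 up to 100 bases, 1 was found, against 77.0%. At 0 h, 15 of the 28 Egr regions were wider than 200 bases and all 15 were found at 1 h. In the whole 0 h list the share found at 1 h was 90.9% for widths above 200 and up to 300 bases, 99.0% above 300 and up to 400, and 96.4% above 400. Of the 10 Egr regions at 0 h above 100 and up to 200 bases, 7 were found at 1 h, against 49.8% in the list, and of the 3 up to 100 bases, 1 was found, against 18.5%. The part of width in the sharing at the Egr loci was not tested.

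**Figure D3:**
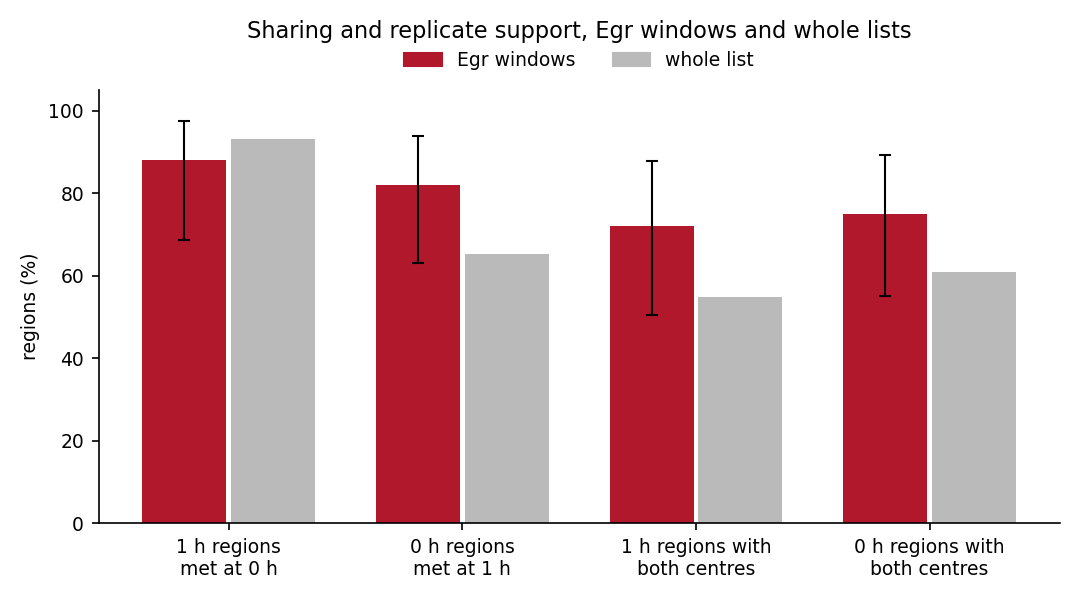
Bars are percentages of regions, for the Egr windows (with exact 95% intervals) on the left of each pair and the whole list on the right, for regions met at the other time and for regions with centres in both columns. The Egr share of 0 h regions met at 1 h is 82.1%, against 65.4% in the whole list, and every whole-list share lies within the interval of the Egr windows.

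Centres per column give the comparison of times that has replicates, with c1 and c2 read as the 2 libraries of a group. In the Egr windows the 1 h columns held 22 centres in c1 and 21 in c2, and the 0 h columns held 26 in c1 and 23 in c2. Both 1 h columns were thus below both 0 h columns in these windows, as they were over the whole lists. That order did not hold with the windows narrowed or widened. Means were 21.5 ± 0.707 centres at 1 h and 24.5 ± 2.12 at 0 h (SD, n = 2 columns each), a difference of -3.00 (two-sided exact permutation p = 0.333, the smallest that 2 columns against 2 allow). With the windows narrowed by 0.2 of their length at each side, the 1 h columns held 17 and 17 centres, against 19 and 16 at 0 h (difference -0.5, two-sided exact permutation p = 1.0). With the windows widened to 2 times their length, they held 40 and 34 at 1 h, against 47 and 40 at 0 h (difference -6.5, two-sided exact permutation p = 0.667). The ratio of the means, 1 h over 0 h, was 0.878 in the Egr windows and 0.678 over the whole lists. The direction turned when each column was scaled by its own total, since the whole columns held 114659 and 74386 centres at 1 h and 155961 and 122913 at 0 h. Per 100000 centres of the column, the Egr windows then held 19.2 and 28.2 at 1 h, against 16.7 and 18.7 at 0 h, with means of 23.7 ± 6.39 at 1 h and 17.7 ± 1.44 at 0 h (two-sided exact permutation p = 0.333, again the smallest). Column totals count called peaks and are no measure of sequencing depth. The labels do not tell whether a group's 2 libraries are from separate cultures. If the columns are the 2 libraries, these p-values measure only the spread between libraries, which may be technical.

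By locus, the columns of the 2 times stood apart for Egr1, which had 6 and 6 centres at 1 h, against 8 and 8 at 0 h (two-sided exact permutation p = 0.333). Egr2 had 7 and 7 at 1 h, against 8 and 6 at 0 h. Egr3 had 4 and 3 at 1 h, against 4 and 4 at 0 h, and Egr4 had 5 and 5 at 1 h, against 6 and 5 at 0 h. For Egr2, Egr3 and Egr4 the columns of the 2 times overlapped or touched (two-sided exact permutation p = 1.0 for each). Per 100000 centres of the column, the 1 h columns stood above the 0 h columns for Egr2, Egr3 and Egr4, and those of Egr1 overlapped.

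**Figure D4:**
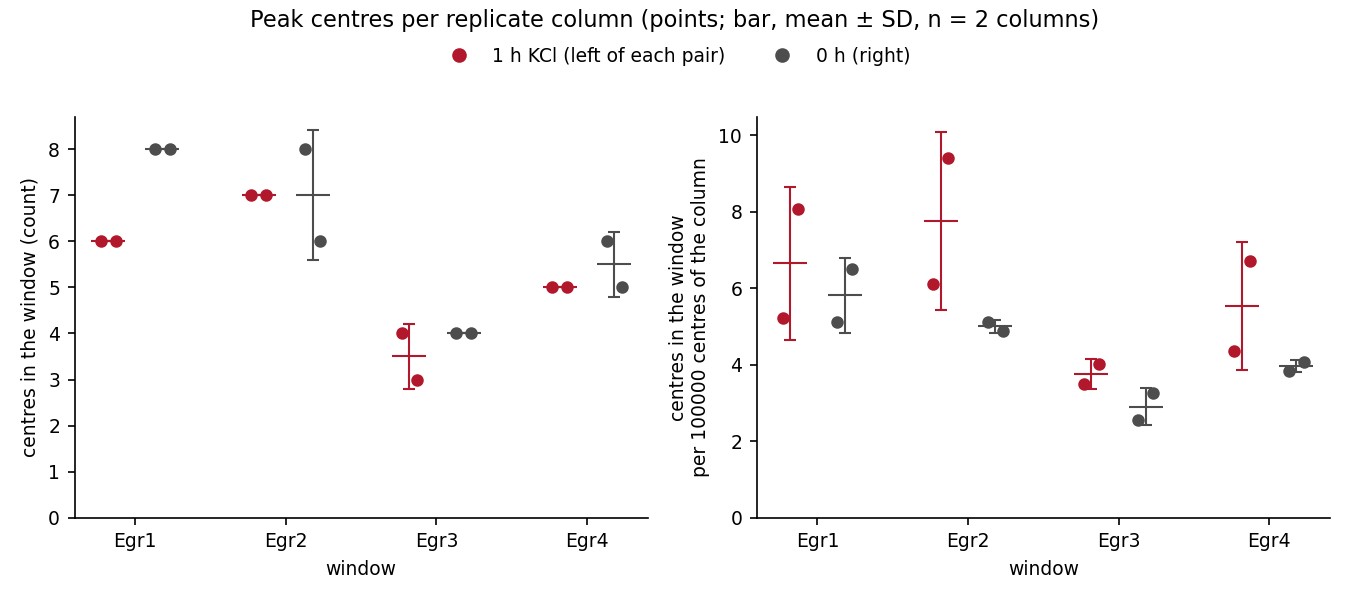
Points are the 2 replicate columns, 1 h on the left and 0 h on the right of each pair, with the mean ± SD, as centres in each window (left panel) and per 100000 centres of the column (right panel). The Egr1 columns lie at 6 and 6 centres at 1 h and at 8 and 8 at 0 h, whereas the scaled means of all 4 loci are higher at 1 h.

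Widths were close at the 2 times for most Egr regions. Over the 22 regions at 1 h with a 0 h counterpart, the median width was 265 bases at 1 h and 295 bases for the widest counterpart at 0 h. The median difference, 1 h minus 0 h, was -30 bases, which is also the median over all 113965 such regions of the list. The median ratio was 0.925 in the Egr windows (quartiles 0.775 and 1.05) and 0.897 over the list (quartiles 0.679 and 1.00). At 1 h, 8 of the 22 were wider, 12 narrower and 2 equal, against 20.2%, 71.3% and 8.53% of the list. A ratio of at least 1.5 was found for 2 of the 22, against 4.13% of the list, and a ratio of at most 1/1.5 for 3 of the 22, against 24.8%. The 2 wider by that ratio were the Egr1 region of 730 bases and the Egr4 region of 170 bases. That Egr1 region was set against the wider of its 2 pieces at 0 h, which with the gap between them span 710 bases. The 3 narrower by it were the Egr3 region of 40 bases and the Egr2 regions of 120 and 160 bases with centres in both columns.

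**Figure D5:**
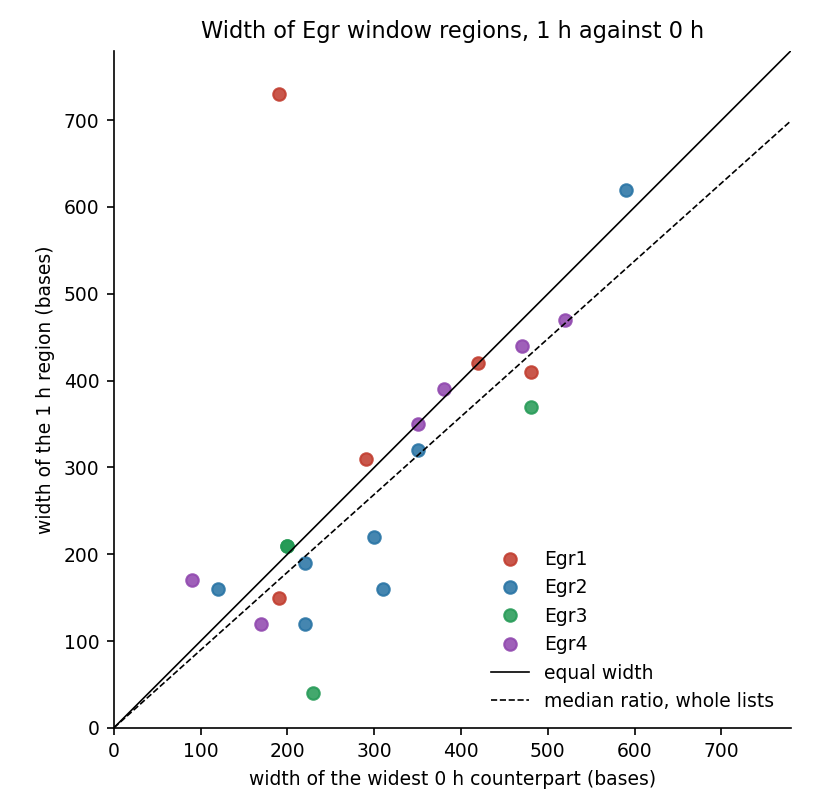
Each point is a 1 h region of an Egr window (width in bases, vertical axis) against its widest 0 h counterpart (width in bases, horizontal axis), coloured by locus, and 2 Egr3 points coincide at 200 and 210 bases. Most of the 22 points lie near the line of equal width or the line of the whole lists' median ratio of 0.897. The Egr1 region of 730 bases, set against the wider of its 2 pieces at 0 h, stands far above both.

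Summed over a window, the listed regions covered 2150 bases at 1 h and 2210 bases at 0 h for Egr1, 1890 at 1 h and 2120 at 0 h for Egr2, 830 at 1 h and 1110 at 0 h for Egr3, and 1940 at 1 h and 1980 at 0 h for Egr4. All 4 loci were covered less at 1 h. Over the 4 windows the ratio of covered bases, 1 h over 0 h, was 0.918, against 0.709 over the whole lists, and listed regions made up 3.17% of the windows at 1 h and 3.45% at 0 h. Such sums move with how much was called in each list, and they have no replicate error.

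Shared regions had close centres at the 2 times, and pairing by overlap itself limits how far apart these can lie. The mean centre moved by a median of 7.5 bases between the times over the 22 Egr pairs, against 10 bases over the list. A shift above 100 bases was found for 1 of the 22, the widest Egr2 region, against 2.38% of the list. Support by the columns was the same at both times for 19 of the 22, of which 17 had centres in both columns at both times and 2 had a c1 centre only, although the c1 columns of the lists are not known to hold libraries of the same number. The other 3 were the Egr1 region of 150 bases, with more support at 1 h, and the Egr3 region of 40 bases and the Egr4 region of 120 bases, with less support at 1 h. In the whole lists, 56.7% of such pairs had centres in both columns at both times, to be set beside the 17 of 22. No whole-list share is given for the 19 with the same support.

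The group titled WT had no region in any Egr window. Its whole list of 43 regions held 0.00174 per 100 kb over chromosomes 1 to 19, so a count of 0 says little about these loci. Its nearest regions on the same chromosomes lay 2.61 Mb from the Egr3 window, 12.3 Mb from the Egr2 window, 24.0 Mb from the Egr1 window and 36.3 Mb from the Egr4 window.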

How the data were processed

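The deposited lists give the start and end of each region and the 2 columns of centres, as bases of the genome. Bowtie and mm9 were used, per the submitters' processing notes. The peak caller, its threshold, how replicates were combined and whether positions count from 0 or 1 are not stated there. Of 60 samples, 8 are ChIP-seq and 6 of these were used; the rest was not analysed here. The members and lists were chosen with earlier results of these data known. Columns c1 and c2 were read as the 2 replicates of a group, and they were not matched between lists. Regions overlapping a window by at least 1 base were members, and regions met if they overlapped by at least 1 base. A 1 h region was paired with its widest 0 h counterpart. Named regions were up to 8 per window and time, those with both centres first and then by width, plus all listed at a single time. Nab1 and Nab2 were left out, since no mm9 annotation was used. Centres per column were compared with a two-sided exact permutation test. Code was tested on simulated lists. Python 3.11.15, numpy 2.4.6, pandas 2.3.3 and scipy 1.17.1 were used.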

Additional observations from a re-analysis of the deposited data

How the results depend on the processing

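No paired analysis was possible because c1 and c2 cannot be tied to the numbered libraries. Counts moved with the windows: widened to 2 times their length, they held 43 regions at 1 h and 52 at 0 h. With centres in both columns required of the 1 h region but not of its counterpart, 100.0% of the 1 h regions were met at 0 h. The difference in centres was -0.5 in narrowed and -6.5 in widened windows. Scaling by column totals reversed the difference in centres, to 6.02 per 100000. Without 1 replicate column, there were 21 to 25 regions at 1 h and 23 to 28 at 0 h, the ratio of 1 h to 0 h regions was 0.750 to 1.09 (above 1 without the c1 column of 0 h), the share of 1 h regions met was 80.0% to 95.5% and of 0 h regions 71.4% to 87.0%, and the difference in centres was -4.5 to -1.5. Merging regions within 500 bases gave 25 regions at 1 h and 25 at 0 h. Overlap of 50% of both regions gave shares met of 80.0% at 1 h and 71.4% at 0 h, against 76.8% and 54.2% of the whole lists. The median width difference was -30 bases under both alternatives run. The WT count stayed at 0 in widened windows, as it had to, since the nearest WT region lay 2.61 Mb from a window. What depth limits here is not known.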

Other observations

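Widening each Egr window to 2 times its length added flanks at either side that held 18 regions at 1 h and 24 at 0 h. All 18 at 1 h overlapped a 0 h region, against 93.3% of the whole list, and 18 of the 24 at 0 h overlapped a 1 h region, against 65.4%. Both columns gave a centre for 13 of the 18 at 1 h, against 54.8% of the whole list, and for 14 of the 24 at 0 h, against 61.0%. The 6 regions of the flanks listed at 0 h only lay beside Egr2 (3), Egr4 (2) and Egr1 (1), and Egr3 had none. The widest region of the Egr1 window and its flanks together lay in a flank, outside the window, and need not belong to Egr1. It was 990 bases at 1 h (chromosome 18, 35060140 to 35061130) and 980 bases at 0 h (35060140 to 35061120), and had centres in both columns at both times. In the flanks of the other loci the widest region was 350 bases at 1 h and 330 at 0 h for Egr2, 250 at 1 h and 330 at 0 h for Egr3, and 260 at 1 h and 250 at 0 h for Egr4. These flanks were described after their values were seen, and no test was made.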
